A study of Mus musculus with 6 samples.

Results

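The acute phase proteins described here are serum amyloid A (Saa1, Saa2, Saa3, Saa4), the orosomucoids (Orm1, Orm2, Orm3), lipocalin 2 (Lcn2), haptoglobin (Hp) and hemopexin (Hpx). They were chosen by their signal in the same comparison of genotypes that is described below, so their differences are given as a description without a test. The members were found as the array probe sets, each a group of oligonucleotides against a transcript, that carry exactly 1 gene symbol equal to one of these names. This gave 12 probe sets for 10 of the 18193 genes measured.

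The study compared livers of Dnajb4-/- mice, which lack the heat shock protein HLJ1 by gene targeting in embryonic stem cells, with livers of Dnajb4+/+ wild-type mice. All animals were labelled as male C57BL/6 mice of 6 to 8 weeks, and the labels name no carcinogen or other treatment. Total RNA of 3 livers per genotype was labelled and hybridised to Affymetrix mouse arrays, 1 array per mouse by the labels. The targeting was described without a tissue-specific promoter or Cre, and whether littermates served as controls was not given in the sources used here. Signals are given as linear intensities from GCRMA, a background correction and normalization that gives 1 value per probe set. A log2 difference is always Dnajb4-/- minus Dnajb4+/+, and the precision is limited by the 3 arrays per genotype.

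In the acute phase response, cytokines that are released by macrophages and other cells act on hepatocytes and shift the set of plasma proteins that the liver makes. Interleukin 6 acts through its receptor and STAT3, interleukin 1 and tumor necrosis factor act through NF-kB, and C/EBP factors and glucocorticoids act together with both at the promoters. Serum amyloid A travels on high-density lipoprotein, orosomucoids are glycoproteins that carry small lipophilic molecules, lipocalin 2 binds the siderophores with which bacteria take up iron, haptoglobin binds free hemoglobin and hemopexin binds free heme.

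The members lie partly in gene clusters, and their upstream sequences are shown because nearby copies can be hard to separate on an array and because C/EBP is a known regulator of acute phase genes. Windows of 250 bases before the transcript start were taken from RefSeq for 8 of the 10 members, on build GRCm38.p6 and on the strand of the gene. Orm1 and Hp were not among the windows used here. The 5 sequences below belong to the members with the largest differences. Capitals mark each match to a motif searched on both strands. The windows are chr7:46742981-46743230 (minus strand) for Saa1, chr7:46751583-46751832 (plus strand) for Saa2, chr4:63362199-63362448 (plus strand) for Orm2, chr4:63355908-63356157 (plus strand) for Orm3 and chr2:32387740-32387989 (minus strand) for Lcn2.
Saa1: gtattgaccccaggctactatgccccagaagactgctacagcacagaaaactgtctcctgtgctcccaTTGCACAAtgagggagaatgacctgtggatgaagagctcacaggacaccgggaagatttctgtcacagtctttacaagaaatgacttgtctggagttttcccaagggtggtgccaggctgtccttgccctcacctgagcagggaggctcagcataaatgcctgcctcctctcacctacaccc
Saa2: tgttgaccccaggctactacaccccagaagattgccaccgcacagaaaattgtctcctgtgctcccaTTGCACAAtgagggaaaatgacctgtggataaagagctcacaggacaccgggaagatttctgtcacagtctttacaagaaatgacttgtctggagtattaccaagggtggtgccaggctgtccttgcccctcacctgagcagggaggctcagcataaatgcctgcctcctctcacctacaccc
Orm2: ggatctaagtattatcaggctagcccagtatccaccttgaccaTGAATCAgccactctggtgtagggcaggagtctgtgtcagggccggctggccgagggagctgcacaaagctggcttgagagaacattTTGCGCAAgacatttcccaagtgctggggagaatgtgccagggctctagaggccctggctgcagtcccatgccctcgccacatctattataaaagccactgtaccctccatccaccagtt
Orm3: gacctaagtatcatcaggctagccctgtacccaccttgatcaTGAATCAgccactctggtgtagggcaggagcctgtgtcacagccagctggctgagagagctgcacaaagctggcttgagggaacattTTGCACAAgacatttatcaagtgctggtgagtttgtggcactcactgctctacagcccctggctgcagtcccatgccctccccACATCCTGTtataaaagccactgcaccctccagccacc
Lcn2: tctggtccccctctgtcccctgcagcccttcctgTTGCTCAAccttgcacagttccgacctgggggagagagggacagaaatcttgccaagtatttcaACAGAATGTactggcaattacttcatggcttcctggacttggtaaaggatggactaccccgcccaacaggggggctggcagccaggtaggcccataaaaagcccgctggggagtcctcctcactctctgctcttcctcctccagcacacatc
The Saa1 and Saa2 windows shared 238 of 249 aligned bases (95.6%), and the Orm2 and Orm3 windows shared 218 of 245 (89.0%). The C/EBP motif TTGCNNAA was found in 8 of the 8 member windows, while 9.57% of 32536 distinct windows of the same length held it. In Saa1 and Saa2 the match reads TTGCACAA, beginning 182 and 183 bases before the start. Orm2 and Orm3 hold TTGCGCAA and TTGCACAA, beginning 120 and 121 bases before the start, and the match of Orm2 reads the same on both strands. Lcn2 holds TTGCTCAA, beginning 216 bases before the start. Saa3 (chr7:46715677-46715926), Saa4 (chr7:46732604-46732853) and Hpx (chr7:105600117-105600366, all on the minus strand) also hold a match, and Saa4 has 2. Since the amyloid A genes and the orosomucoids are copies of one another, the 8 windows are not independent.

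The other motifs were less common among the members. The AP-1 motif TGANTCA was in Orm2 and Orm3 (6.73% of all windows), and the glucocorticoid receptor core ACANNNTGT was in Orm3 and Lcn2 (5.82%). No member window held the STAT motif TTCNNNGAA (7.04%), the IL-6 response element core CTGGGAA (9.14%) or the NF-kB motif, searched as GGG and TTTCC with any 2 bases between them (1.4%). No matches of different motifs overlapped in these windows. A match is a stretch of letters and not a measured binding site, and the lack of one says only that these letters are not in this window.

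Lcn2 had the largest difference of the 10 genes. The Lcn2 probe set read 588, 568 and 595 in the 3 Dnajb4+/+ arrays and 136, 146 and 130 in the 3 Dnajb4-/- arrays. All Dnajb4-/- arrays were far below all Dnajb4+/+ arrays, with a gap of 1.96 on the log2 scale between the nearest arrays. The means were 584 ± 14.4 and 137 ± 7.93 (SD, n = 3), which is 4.26-fold lower and -2.09 on the log2 scale (standard error 0.05). By size this was the 18th largest negative difference of all 18193 genes. In bulk liver, fewer cells of a type and less RNA per cell cannot be told apart, and Lcn2 is a product of neutrophils as well as of hepatocytes.

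Among the amyloid A genes, the acute phase forms Saa1 and Saa2 showed the largest differences. Saa2 read 3571, 3324 and 3378 in Dnajb4+/+ livers and 917, 1017 and 969 in Dnajb4-/- livers. The genotypes did not overlap, and the Dnajb4-/- mean was 28.2% of the Dnajb4+/+ mean, a log2 difference of -1.82 (standard error 0.05). Saa1 has 2 probe sets. The first, whose suffix _s_at marks that it can read several transcripts, read 8906, 8805 and 8822 in Dnajb4+/+ and 3391, 3531 and 3589 in Dnajb4-/- livers. The second read 9742, 9988 and 9646 against 4588, 4726 and 4774. Both separated the genotypes, with log2 differences of -1.34 and -1.06, and their mean was -1.20 (standard error 0.04). The platform annotation gives the same transcript accession for the Saa2 probe set and for the first Saa1 probe set, and RefSeq lists each of these gene names as a synonym of the other. The Saa2 name therefore stands for a probe set that may also read Saa1, as its suffix _x_at marks, and the signals of these copies are uncertain as to which gene they measure.

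Saa3, the amyloid A form made in macrophages and other cells besides hepatocytes, read 391, 382 and 406 in Dnajb4+/+ and 297, 313 and 326 in Dnajb4-/- livers. The groups were separate but closer, with a log2 difference of -0.34 (standard error 0.05). Saa4, the constitutive form, was measured by 2 probe sets that disagreed. With the brighter probe set the arrays read 8645, 8634 and 8627 in Dnajb4+/+ and 8599, 8506 and 8743 in Dnajb4-/- livers, and the genotypes overlapped. With the dimmer one they read 1916, 1888 and 1947 against 1373, 1466 and 1444, with all Dnajb4-/- arrays lower. The log2 differences were -0.0034 and -0.43, so the mean of -0.21 (standard error 0.04) for Saa4 rests on the dimmer probe set.

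The orosomucoids differed from one another. Orm2 read 673, 636 and 633 in Dnajb4+/+ and 242, 269 and 254 in Dnajb4-/- livers. Every Dnajb4-/- array was below every Dnajb4+/+ array, and the Dnajb4-/- mean was 39.4% of the Dnajb4+/+ mean, a log2 difference of -1.34 (standard error 0.05). Orm3 read 116, 93.1 and 111 against 63.8, 64.0 and 66.2. The Dnajb4+/+ arrays were spread over a wider range than the Dnajb4-/- arrays, yet the groups did not overlap, and the log2 difference was -0.72 (standard error 0.08). Orm1 read 13344, 13036 and 13349 in Dnajb4+/+ and 11864, 11912 and 11683 in Dnajb4-/- livers. This small difference of -0.16 on the log2 scale (standard error 0.04) also separated the groups. The orosomucoids are close copies, and how far each probe set reads the other copies was not tested.

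**Figure D1:**
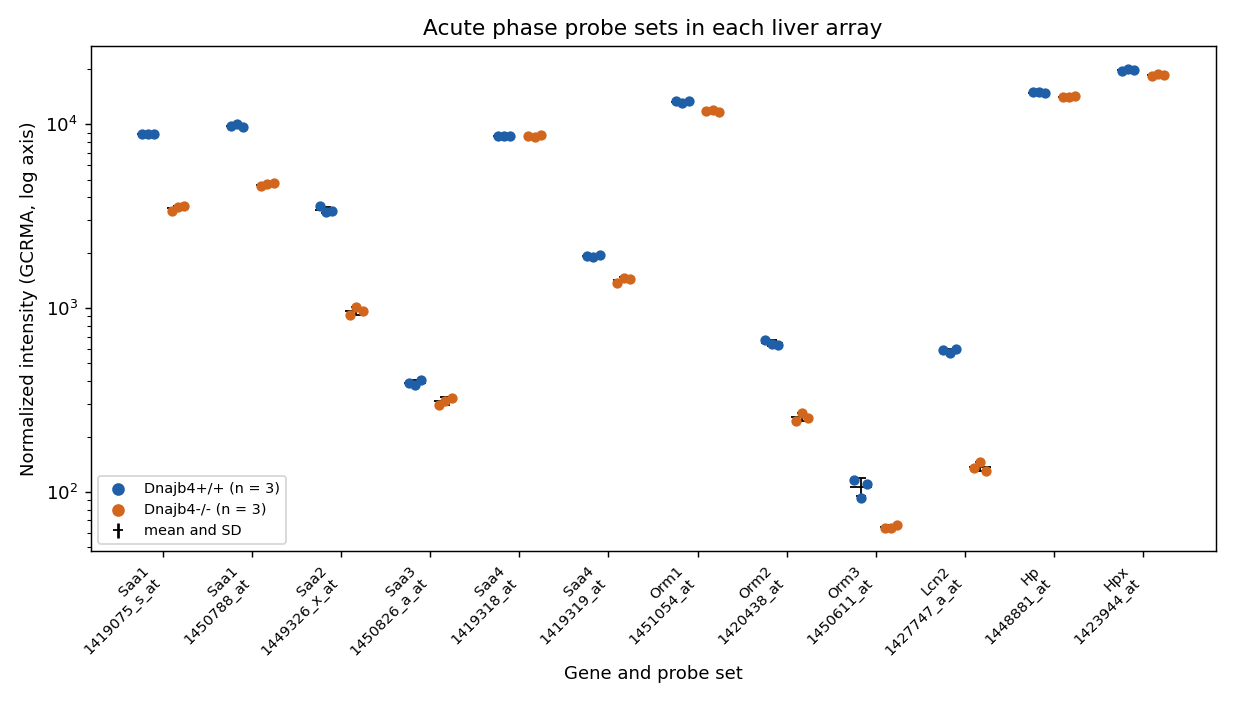
Intensity of each of the 12 probe sets (log axis) in the 3 Dnajb4+/+ (blue) and 3 Dnajb4-/- (orange) arrays, with the mean and SD. The groups are apart in 11 probe sets, and in the brighter probe set of Saa4 they overlap.

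The scavengers of hemoglobin and heme showed the smallest differences. Hp read 14903, 14900 and 14801 in Dnajb4+/+ and 13985, 13996 and 14235 in Dnajb4-/- livers. Hpx read 19436, 20008 and 19638 against 18408, 18839 and 18637. In both genes the groups lay side by side without overlap, with the Dnajb4-/- mean at 94.6% of the Dnajb4+/+ mean and a log2 difference of -0.08 (standard error 0.03 for Hp and 0.04 for Hpx). Their signals were near the top of the range, and no mark of saturation was used here. Hpx was among the 39 brightest and Hp among the 79 brightest of all 45101 probe sets on every array.

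Ordered by the size of the difference, the genes ran from Lcn2 over Saa2, Orm2, Saa1, Orm3, Saa3, Saa4 and Orm1 to Hpx and Hp. The steps between neighbours were 0.27 (standard error 0.07) from Lcn2 to Saa2, 0.48 (0.07) from Saa2 to Orm2, 0.15 (0.06) from Orm2 to Saa1, 0.48 (0.09) from Saa1 to Orm3 and 0.38 (0.10) from Orm3 to Saa3, on the log2 scale. Below Saa3 the steps were small. They were 0.12 (0.06) to Saa4, 0.05 (0.05) to Orm1, 0.08 (0.05) to Hpx and 0.00080 (0.05) to Hp, so that each pair of neighbours from Saa3 down to Hp was within 2 standard errors. The standard errors of the steps treat the genes as independent. All genes were read on the same arrays, so these standard errors are only a rough guide to the order.

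**Figure D2:**
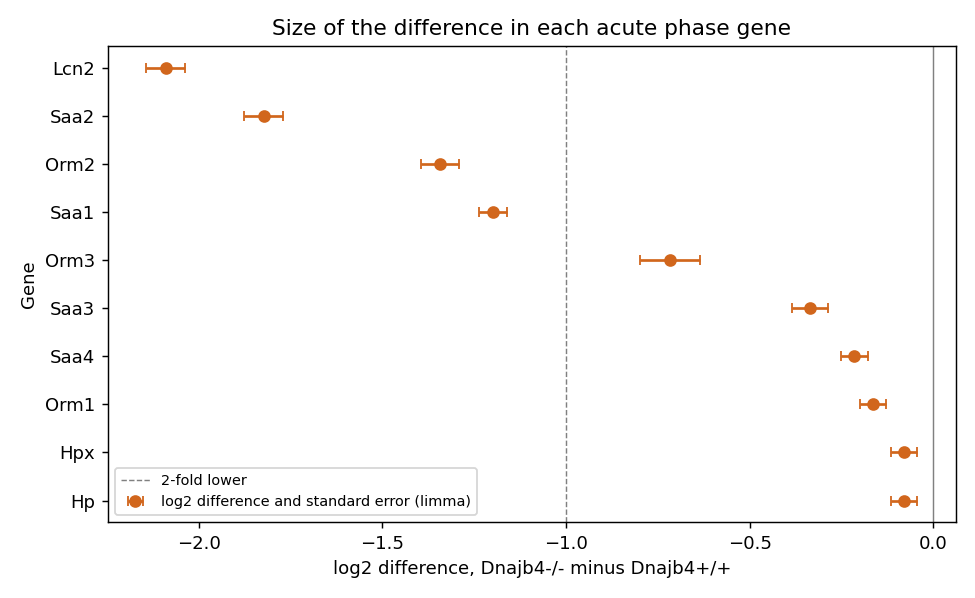
Log2 difference, Dnajb4-/- minus Dnajb4+/+, of each of the 10 genes with its standard error from the limma fit over all genes; the dashed line marks 2-fold lower. Lcn2, Saa2, Orm2 and Saa1 lie beyond the line, and Hp and Hpx lie nearest to 0.

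Read together, 10 of the 10 genes had all Dnajb4-/- values below all Dnajb4+/+ values, as had 19.4% of all genes. For single probe sets the count was 11 of 12, beside 18.9% of all probe sets. In limma with an adjusted p threshold of 0.05, 9.57% of all genes were lower and 5.09% higher, and no such call is given for a member. A log2 difference under -1 was found in 4 of the 10 genes and in 0.319% of all genes. The median was -0.53 over the 10 genes and 0.0075 over all genes. Because the members were chosen by this contrast, nothing is read from these counts.

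**Figure D3:**
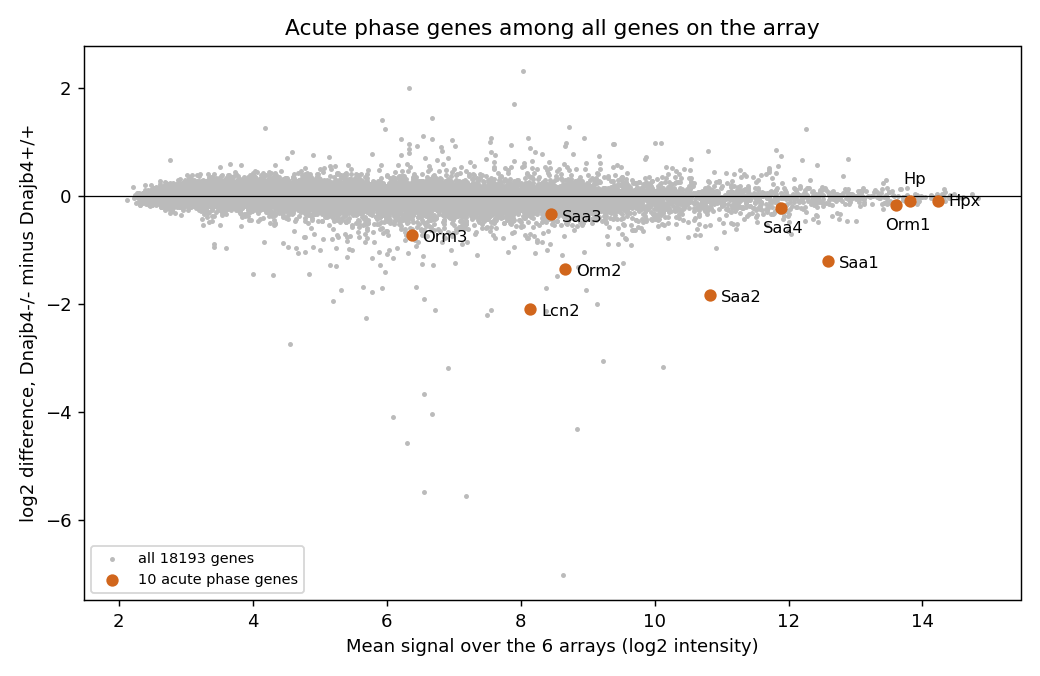
Log2 difference between the genotypes against the mean log2 intensity over the 6 arrays for all 18193 genes (grey) and the 10 acute phase genes (orange, named). The named genes all lie below 0, from -2.09 for Lcn2 to -0.08 for Hp.

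The other genes of the response were taken from 5 lists that do not hold the members. These lists were chosen with earlier results of these data known, so their counts and p-values are a description. The genes named first in each list are those called with the largest differences. Of 112 genes in these lists, 21 were lower and 7 were higher by limma at an adjusted p threshold of 0.05. Of all genes, 9.57% were lower and 5.09% higher in the same fit, and these shares stand beside each list count below. The list of positive acute phase proteins, whose output rises in inflammation, had 26 measured genes, of which 9 were lower, 1 was higher and 16 did not pass, with a median log2 difference of -0.09. Mt2 and Mt1, the metallothioneins, which are metal-binding proteins of the cell rather than plasma proteins, had the largest differences of the list. Mt2 read 3402, 3335 and 3325 in Dnajb4+/+ and 368, 376 and 380 in Dnajb4-/- livers, and Mt1 read 1093, 1123 and 1170 against 280, 291 and 283. Both were lower in 3 of 3 Dnajb4-/- arrays. The log2 difference was -3.16 for Mt2 (standard error 0.04, limma adjusted p = 6.54e-08) and -1.99 for Mt1 (standard error 0.04, limma adjusted p = 8.3e-07).

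Plasma proteins of the same list moved less. Serpina3n, a protease inhibitor, read 2653, 2713 and 2737 in Dnajb4+/+ and 1836, 1963 and 1919 in Dnajb4-/- livers (log2 difference -0.50, standard error 0.04, adjusted p = 5.1e-04 from limma). Fgl1, a fibrinogen-like protein secreted by hepatocytes, read 6558, 6459 and 6548 against 4721, 4704 and 4638 (-0.48, standard error 0.03, adjusted p = 2.97e-04). In both genes the genotypes were separate. The remaining lower genes were Lbp, Mbl2, Apcs, Hamp and Itih3, between -0.33 and -0.14, and the only higher gene was A2m (25.5 ± 2.11 against 31.96 ± 2.80, SD, n = 3, adjusted p = 0.0429), all named after their values were seen. The Hamp and Itih3 calls were lost when any 1 of the 6 arrays was left out. The A2m call was lost without Dnajb4+/+ replicate 1, Dnajb4+/+ replicate 3, Dnajb4-/- replicate 2 or Dnajb4-/- replicate 3. The fibrinogen chains Fga, Fgb and Fgg, which are classical IL-6 targets, had log2 differences of -0.0084, -0.01 and 0.05 and did not pass.

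The negative acute phase proteins, whose output falls in inflammation, included 2 lower, 1 higher and 10 genes that did not pass, of 13 measured, with a median of -0.04. Serpina6, which encodes corticosteroid-binding globulin, read 2661, 2628 and 2752 in Dnajb4+/+ and 1371, 1410 and 1378 in Dnajb4-/- livers. It fell by 0.95 on the log2 scale (standard error 0.04, adjusted p = 1.94e-05 from limma). Serpina7, thyroxine-binding globulin, had mean intensities of 246 ± 19.9 and 150 ± 8.997 (SD, n = 3), and fell by 0.71 on the log2 scale (standard error 0.07, adjusted p = 0.00119). The coagulation factor F12 averaged 2746 ± 38.7 against 3065 ± 68.4 (SD, n = 3) and was 0.16 higher on the log2 scale (standard error 0.04, adjusted p = 0.0346). The F12 call was lost when any 1 of the 6 arrays was left out, with a difference of 0.14 to 0.18. Albumin (Alb), transthyretin (Ttr) and Rbp4 differed by -0.03, 0.02 and -0.04 and did not pass.

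**Figure D4:**
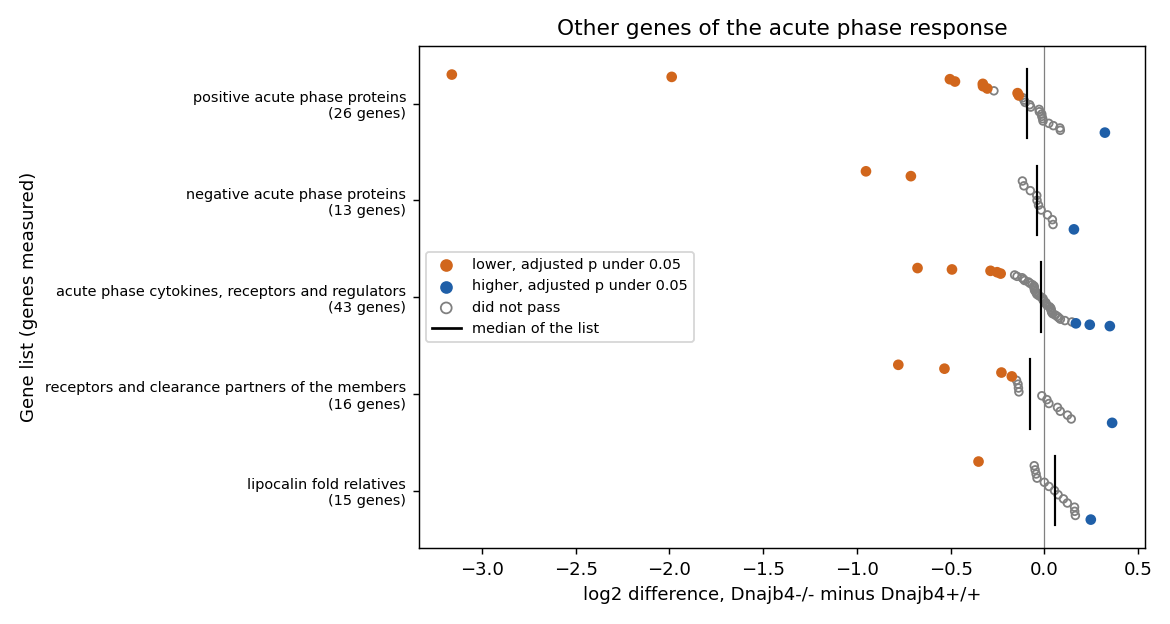
Log2 difference, Dnajb4-/- minus Dnajb4+/+, of each measured gene in 5 lists of the acute phase response without the members. Orange points passed as lower, blue points passed as higher, open points did not pass, and the bar is the median of the list. Mt2 and Mt1 lie far from the other genes of their list.

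Among cytokines, receptors and regulators, 5 genes were lower, 3 were higher and 35 did not pass, of 43 measured (median -0.02). Beside this, 9.57% of all genes were lower and 5.09% higher, so the counts alone are not read as a change in regulators. Junb, an AP-1 subunit, read 163, 150 and 171 in Dnajb4+/+ and 93.5, 107 and 103 in Dnajb4-/- livers (-0.68, standard error 0.07, adjusted p = 0.00119 from limma). Nfkbiz, an atypical I-kappa-B protein that acts with NF-kB in the nucleus, was 60.6 ± 1.15 against 43.1 ± 1.71 (SD, n = 3, log2 difference -0.49, standard error 0.04, adjusted p = 6.71e-04). Lifr, the receptor subunit for leukemia inhibitory factor, was 650 ± 17.02 against 828 ± 11.2 (SD, n = 3, log2 difference 0.35, standard error 0.04, adjusted p = 0.00168). The brightest probe set of Lifr alone gave 0.08 and did not pass. Jun, a further AP-1 subunit, fell by 0.29 on the log2 scale (standard error 0.05, adjusted p = 0.00977). Socs3, the feedback inhibitor of IL-6 signaling, fell from 200 ± 3.998 to 168 ± 5.29 (SD, n = 3, log2 difference -0.25, standard error 0.04, adjusted p = 0.00887), a call lost without the probe sets that can read several transcripts. Named after their values were seen, Cebpa, the main C/EBP factor of resting hepatocytes, fell by 0.23 on the log2 scale (standard error 0.04, adjusted p = 0.00726 from limma). Il1r1, the receptor for interleukin 1, was higher by 0.24 (standard error 0.04, adjusted p = 0.0103). Hnf4a, a regulator of hepatocyte genes, was higher by 0.17 (standard error 0.04, adjusted p = 0.0311), a call lost without any 1 of the Dnajb4+/+ replicates and without Dnajb4-/- replicate 1 or 2.

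The genes named here for the core of the IL-6 and NF-kB pathways did not pass the test at the level of RNA. For NF-kB this is Rela alone, since Nfkb1 had no probe set with a single symbol. Stat3 read 183, 183 and 179 in Dnajb4+/+ and 187, 184 and 185 in Dnajb4-/- livers, which differ by 0.03 on the log2 scale (standard error 0.04, limma adjusted p = 0.646). All Dnajb4-/- values of Stat3 lay above all Dnajb4+/+ values, as in 2934 of all 18193 genes. The receptor chains Il6ra and Il6st had -0.0065 (adjusted p = 0.930) and -0.10 (adjusted p = 0.115). The Il6st call changed, to lower, with 16 added to each value or with dim genes left out. Cebpb and Cebpd, the C/EBP factors induced in inflammation, had -0.0013 (adjusted p = 0.987) and -0.02 (adjusted p = 0.876), and Rela, an NF-kB subunit, had 0.01 (adjusted p = 0.891). Il6 itself read 6.83 and 6.58 on average, and Il6, Lif, Il11, Socs1, Rel and Tlr4 were under 20 in both genotypes, where the array medians were 31.8 to 32.5. RNA levels do not show the phosphorylation of STAT3 or the location of NF-kB.

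Receptors and clearance partners of the members included 4 lower, 1 higher and 11 genes that did not pass, of 16 measured (median -0.07). Cd163, the receptor for haptoglobin-hemoglobin on Kupffer cells, read 351, 354 and 368 in Dnajb4+/+ and 213, 205 and 207 in Dnajb4-/- livers (-0.78, standard error 0.04, adjusted p = 5.39e-05 from limma). Asgr2 and Asgr1, the chains of the hepatocyte receptor that clears desialylated glycoproteins such as orosomucoid, differed by -0.53 (standard error 0.05, adjusted p = 5.87e-04) and -0.23 (standard error 0.04, adjusted p = 0.00752). Cd36, a scavenger receptor that binds serum amyloid A, named after its values were seen, also passed as lower (-0.17, standard error 0.04, adjusted p = 0.0261), a call lost when any 1 of the 6 arrays was left out and with the brightest probe set. Lrp2, the megalin receptor that can take up lipocalin 2, was 14.4 ± 0.436 against 18.5 ± 0.280 (SD, n = 3, log2 difference 0.36, standard error 0.04, adjusted p = 0.00168), both under 20. Slc22a17, a further lipocalin 2 receptor, had 0.07 (adjusted p = 0.581), and Lrp1, the hemopexin-heme receptor, had 0.12 (adjusted p = 0.0751).

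Lcn2 and the orosomucoids belong to the lipocalin fold, and their other relatives gave 1 lower, 1 higher and 13 genes that did not pass, of 15 measured (median 0.06). Ptgds, a prostaglandin D synthase, was 62.0 ± 1.08 against 48.7 ± 3.51 (SD, n = 3, log2 difference -0.35, standard error 0.06, adjusted p = 0.00931 from limma). Mup3, a major urinary protein with near-identical copies, differed by 0.25 (standard error 0.06, adjusted p = 0.0455). The Mup3 call was lost without Dnajb4+/+ replicate 1, 2 or 3, and without Dnajb4-/- replicate 1 or 2. It was also lost with the brightest probe set and with the linear mean of probe sets, where the difference was 0.12.

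For the 4 genes past a log2 difference of 1, the non-member genes with the most similar pattern were sought, as the smallest root mean square distance between the 6 log2 values after each gene's own mean was removed. Such distances mostly follow the size of the genotype difference. For Lcn2 these were Mt1 (0.07), Usp2 (0.09) and Cyp17a1 (0.10). For Saa2 they were Clec2h (0.06), Cyp7a1 (0.07) and Vnn1 (0.08). For Saa1 they were Noct (0.04), Coq10b (0.06) and Acot4 (0.07), and for Orm2 they were Coq10b (0.04), Noct (0.07) and Abcd2 (0.07). Noct and Coq10b were thus nearest to both Saa1 and Orm2. Cyp17a1 and Abcd2 are among the genes known as higher in female liver, which are described below.

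Further measures were read in the same arrays, and their part in the differences was not tested. Dnajb4, the targeted gene, did not pass as lower. It read 137 ± 5.51 against 124 ± 6.85 (SD, n = 3, log2 difference -0.14, standard error 0.06, adjusted p = 0.145 from limma). Where the Dnajb4 probe sets lie relative to the targeted part of the gene is not given in the sources used here. Xist, which female cells express, read 364 to 402 in the arrays labelled Dnajb4+/+ and 14.3 to 17.1 in those labelled Dnajb4-/-, against the label of male animals. Of 18 genes known as higher in female liver, Xist among them, 17 were lower and 0 higher. Of 14 known as higher in males 11 were higher and 0 lower. In Dnajb4-/- arrays the summed intensity was 7.12% to 7.34% of the Dnajb4+/+ mean for the female-high genes. For the male-high genes it was 137% to 140%. Male-high genes were also bright in Dnajb4+/+ arrays, such as Hsd3b5 (3740 against 5957) and Elovl3 (3187 against 7562). Whether RNA of both sexes was present in an array was not tested. Every member value above therefore comes from a comparison that also differs in these sex-linked signals, and genotype and sex-linked RNA cannot be told apart in these arrays. The ratio of the 3' to the 5' control probe set, a sign of RNA integrity, was 1.17 ± 0.013 against 1.45 ± 0.027 for Gapdh and 2.65 ± 0.048 against 3.17 ± 0.060 for Actb (SD, n = 3).

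Markers of other cell types were set beside the members as summed intensity in percent of the Dnajb4+/+ mean. For the counts of called markers, the shares over all genes were 9.57% lower and 5.09% higher. The 12 neutrophil markers reached 91.0% to 93.4% in Dnajb4-/- livers and 97.5% to 102% in Dnajb4+/+ livers, with S100a8, S100a9 and Prtn3 lower, Ltf higher and 8 genes that did not pass. Of the defining neutrophil genes, Mpo read 24.4 and 24.5 and Mmp8 and Stfa2l1 were under 20. The Kupffer cell and macrophage markers had 11 of 12 genes lower and 0 higher, and their sum was 75.4% to 79.5%. Hepatocyte markers stood at 97.4% to 98.0% with 1 of 10 genes lower (Tat, -0.42 on the log2 scale) and 1 higher (Apob, 0.42). This sum is carried largely by very bright genes such as Alb (29388 against 28776), so it shows little of the dimmer markers. Lymphocyte markers were at 98.1% to 99.6%, with 1 of 10 lower (Nkg7), and adipocyte markers at 92.5% to 96.3%, with 2 of 7 lower (Adipoq and Plin4) and Adipoq, Lep and Cidec under 20. Stellate cell and fibroblast markers stood at 86.6% to 91.3%, with 3 of 10 lower (Col1a2, Rgs5 and Lum). Skeletal muscle markers were at 47.6% to 49.8%, with 13 of 14 lower. The part of these cell types in the differences of Lcn2, Saa3 and the other members was not tested.

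**Figure D5:**
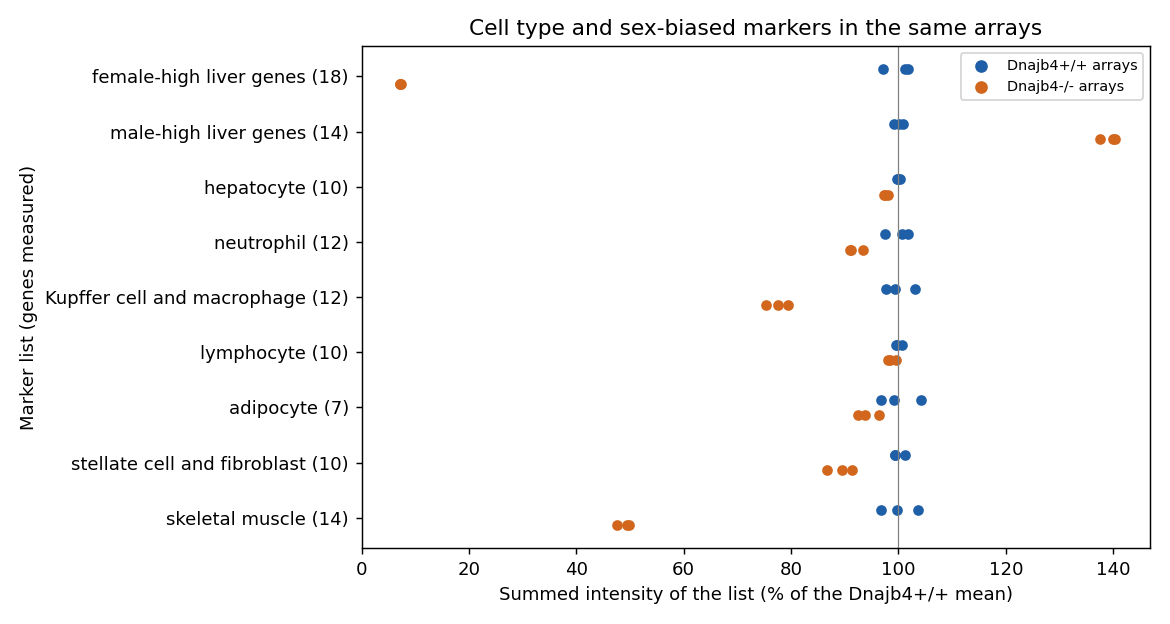
Summed intensity of each marker list in each array, in percent of the Dnajb4+/+ mean, with Dnajb4+/+ arrays in blue and Dnajb4-/- arrays in orange; the number of measured genes stands in brackets. Hepatocyte sums stay within 97.4% to 98.0% in Dnajb4-/- arrays, while Kupffer cell and macrophage sums lie at 75.4% to 79.5% and female-high sums at 7.12% to 7.34%.

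The members were also computed under other choices of processing. Every member had a negative difference in every setting that measured it. Lcn2 ranged from -2.14 to -1.97, Saa2 from -1.86 to -1.79, Orm2 from -1.38 to -1.29 and Saa1 from -1.21 to -1.06. Orm3 ranged from -0.81 to -0.60, Saa3 from -0.37 to -0.30 and Orm1 from -0.18 to -0.13. Hp ranged from -0.09 to -0.05 and Hpx from -0.11 to -0.05. Saa4 ranged from -0.22 to -0.0034, the latter with the brightest probe set alone, and this was the one member and setting in which the genotypes overlapped. Without the probe sets whose suffix marks that they can read several transcripts, Saa2, Saa3 and Lcn2 had no value.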

How the data were processed

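Liver RNA of 3 Dnajb4+/+ and 3 Dnajb4-/- mice was measured on Affymetrix Mouse Genome arrays. The deposited values are linear intensities, which the authors made by GCRMA in GeneSpring with global median centring, and versions, detection calls and raw signals were not used here. Of 45101 probe sets, 64 controls were left out. A single symbol in the platform annotation was given for 34958, several for 932 and none for 9211, and 34945 were used. Log2 values were averaged per gene (18193 genes, no filter on dim genes). Replicates are separate mice by the labels.

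The genotypes were tested by limma 3.58.1 under R 4.3.3 (lmFit, eBayes, two-sided, Benjamini-Hochberg over all genes, adjusted p under 0.05), a procedure checked on simulated data. The members and lists were chosen with earlier results of these data known. Named beside the members are up to 4 called genes per list with the largest difference, fixed regulators, Dnajb4 and Xist. The lists are positive and negative acute phase proteins, regulators, receptors and clearance partners, lipocalin relatives, sex-biased genes and markers of 7 cell types. Nfkb1, a fixed regulator, was not analysed here for lack of a probe set with a single symbol. Alternatives covered normalization, centring, an offset of 16, the gene-level value, dim genes, variance model, test, replicate block and left-out arrays. Upstream windows came from RefSeq (GRCm38.p6) and were aligned with biopython 1.88. Figures used matplotlib 3.10.9.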

Additional observations from a re-analysis of the deposited data

How the results depend on the processing

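The median log2 difference over the members (-0.53) was -0.46 with 16 added to each value, -0.48 after quantile normalization, -0.21 without the probe sets of several transcripts (7 members left) and -0.58 to -0.50 with 1 array left out. The count of members without overlap of the genotypes was 10 in each left-out case.

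With 16 added to each value or with dim genes left out, lower regulators numbered 8 (5 in the reported fit), lower negative acute phase proteins 4 (2) and higher lipocalin relatives 2 (1). Without dim genes, 24 of 26 positive acute phase proteins, 30 of 43 regulators and 8 of 15 lipocalin relatives were left. A2m was among the dim genes left out, so higher positive acute phase proteins numbered 0 (1). With the brightest probe set or the linear mean of probe sets, higher positive acute phase proteins numbered 2 and higher lipocalin relatives 0, and the latter were also 0 after quantile normalization. Centred on brighter probe sets, higher lipocalin relatives and higher receptors numbered 2 each (1 each). Without probe sets of several transcripts, higher lipocalin relatives, lower lipocalin relatives (1) and higher negative proteins (1) numbered 0, and higher and lower receptors numbered 2 and 2 (1 and 4).

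With a trend and robust variance, lower negative proteins numbered 8, higher negative proteins 2, higher positive proteins 2, higher receptors 3 and higher and lower lipocalin relatives 2 and 4. By the methods' t-test after Benjamini-Hochberg, lower and higher negative proteins numbered 5 and 3, higher receptors 2 and higher lipocalin relatives 0. At its unadjusted threshold, lower and higher counts were 14 and 3 for positive proteins (9 and 1 in the reported fit), 8 and 3 for negative proteins, 10 and 5 for regulators and 4 and 2 for lipocalin relatives, with 3 higher receptors. With 1 array left out, lower positive proteins numbered 7 to 8, higher positive proteins and higher lipocalin relatives 0 to 1, higher regulators 2 to 3, lower receptors 3 and higher negative proteins 0. Apart from genes that a setting left out, the cause of these changes was not tested.

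With the replicate block, higher regulators numbered 1 (3, without Il1r1 and Hnf4a), higher negative proteins 0 and higher lipocalin relatives 0, and Itih3, Hamp and Cd36 no longer passed. Mup3 was also lost after quantile normalization and by the methods' t-test, and A2m by the latter. Hamp was lost with the brightest probe set, Hamp and Itih3 with centring on brighter probe sets, Itih3 after quantile normalization, and Hamp, Itih3 and Cd36 without probe sets of several transcripts. Deviations of arrays with the same replicate number correlated at -0.02, -0.14 and 0.0091, so the numbers were not taken to pair the arrays. Over all genes, calls as higher made up 34.7% of calls, 50.5% with centring on brighter probe sets and 44.5% after quantile normalization. For dim genes the signal over background limits what could be seen.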
